A study of Mus musculus with 7 samples.

Results

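The phagocyte NADPH oxidase was followed through 6 transcripts, Cybb, Cyba, Ncf1, Ncf4, Rac2 and Hvcn1, chosen by name out of the 28719 genes listed in any of 7 single-cell count tables from mouse neutrophils, and found in every table. Neutrophils of male C57BL/6J mice had been sorted as CD11b+ Ly6G+ cells that excluded propidium iodide (PI). Healthy bone marrow, spleen and peripheral blood were each captured in 2 runs, with 3 mice pooled per tissue and run. By the methods, marrow, spleen and blood of 1 run were drawn from the same animals, which were 6 weeks old in run 1 and 8 weeks old in run 2, so that age and run cannot be told apart. A further library held 5 conditions of 3 pooled mice each, marked by hashtag oligomers and named here as in the deposited cell table. These were unstim_blood, the blood of unstimulated mice; KBxN_blood and KBxN_joint, the blood and joints of mice given arthritis-inducing K/BxN serum on days 0 and 2 and harvested on day 7; and IL1_peritoneum and IL1_lung, taken 3 h after 25 ng of interleukin-1β. The treated mice were 8 weeks old at their first injection or instillation, and the age of those behind unstim_blood is not given in the sources used here. Healthy cells were kept where S100a8 plus S100a9 made up at least 3% of their unique molecular identifiers (UMIs), which gave 12755 of 16907 cells. In the inflammation library the 4852 of 4856 cells that the authors had assigned to a neutrophil reference population (GN) were used. Each of the 15 neutrophil markers checked had at least 1 UMI in every library and condition. They include S100a8 and S100a9, by which the healthy cells were chosen, so that their detection is no test of cell identity.

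NADPH oxidase is the enzyme with which phagocytes turn oxygen into superoxide. Its catalytic core is a membrane heterodimer, formed by the large subunit encoded by Cybb, which carries electrons from NADPH across the membrane, and the small subunit encoded by Cyba, which stabilizes it and holds the docking site for the cytosolic part. Ncf1 encodes the organizer that is phosphorylated when the cell is stimulated and binds Cyba, Ncf4 a lipid-binding adaptor of the same cytosolic complex, and Rac2 a GTPase that joins the complex on activation. Hvcn1 encodes a voltage-gated proton channel that offsets the charge moved by the electrons. Loss of Cybb, Cyba, Ncf1 or Ncf4 causes chronic granulomatous disease in people. These transcripts report RNA only, not protein or oxidase activity.

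In GENCODE annotation of GRCm38, Cybb lies at chrX:9435252-9487771 and Cyba at chr8:122424776-122432930, both on the minus strand. Ncf1 lies at chr5:134220053-134229625 on the minus strand, Rac2 at chr15:78559167-78572783 on the minus strand, and Ncf4 at chr15:78244801-78262580 and Hvcn1 at chr5:122206804-122242297 on the plus strand. None overlaps another annotated gene on its own strand, and Cyba, Ncf1 and Hvcn1 each overlap 1 gene on the other strand (Gm20388, Gtf2ird2 and Tctn1). Start-site windows were held in the RefSeq table (GRCm38.p6) for 3 of the 6 members. They are shown because they pair Cybb and Ncf1, which were both lower in blood than in bone marrow, with Cyba, which was not called. Each runs 5′ to 3′ from 250 bases before the start site and covers 275 bases. The Cybb window is chrX:9469300-9469574, that of Cyba is chr8:122432916-122433190 and that of Ncf1 is chr5:134229601-134229875, all on the minus strand. Capitals mark matches to GAGGAA, the core bound by the myeloid factor PU.1, or to TTGCNNAA, a C/EBP motif, searched on both strands.
Cybb: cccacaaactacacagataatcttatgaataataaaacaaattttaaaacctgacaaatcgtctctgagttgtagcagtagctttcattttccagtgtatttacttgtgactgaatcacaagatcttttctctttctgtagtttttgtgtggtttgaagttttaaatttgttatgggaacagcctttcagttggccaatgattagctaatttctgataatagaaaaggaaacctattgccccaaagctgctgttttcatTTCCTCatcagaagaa
Cyba: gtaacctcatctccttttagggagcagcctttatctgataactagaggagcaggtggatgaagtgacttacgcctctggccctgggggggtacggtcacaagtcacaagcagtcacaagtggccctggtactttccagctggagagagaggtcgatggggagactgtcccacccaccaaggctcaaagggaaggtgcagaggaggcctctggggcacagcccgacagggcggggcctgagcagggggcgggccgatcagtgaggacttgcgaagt
Ncf1: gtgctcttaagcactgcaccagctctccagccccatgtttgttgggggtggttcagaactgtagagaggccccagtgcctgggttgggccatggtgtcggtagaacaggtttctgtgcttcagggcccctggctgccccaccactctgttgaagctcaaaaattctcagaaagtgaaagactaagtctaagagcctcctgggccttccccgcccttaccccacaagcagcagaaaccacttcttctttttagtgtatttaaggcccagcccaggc
The Cybb window held 1 PU.1 core, on the minus strand of the window and 9 bases past the start site, and the windows of Cyba and Ncf1 held neither motif. The PU.1 core occurred in 25.5% and the C/EBP motif in 10.2% of 32851 windows of this length, so that 1 match in 3 windows is near the background. The start site used by RefSeq for Cybb lies inside the longer GENCODE extent of the gene.

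The selected cells of a healthy library summed to between 1360064 and 9104133 UMIs, and those of an inflamed condition to between 942688 and 10293966. The median cell held 2698 and 2134 UMIs in bone marrow (runs 1 and 2), 1355 and 775 UMIs for spleen, 809.5 and 826 UMIs for blood, and 2527 to 3681 in the inflammation library. Levels are given as counts per 1000000 UMIs of the selected cells (CPM), and each library was 1 replicate. Intervals on a level cover counting error only. Spleen of run 2 stood apart, with S100a8 plus S100a9 at 3% in only 46.2% of its cells against 78.9% to 94.9% elsewhere, and its selected cells carried 799 CPM of summed B cell markers. That sum was 306 CPM in blood of run 2, 180 CPM in bone marrow of run 2 and 4.47 to 22.8 CPM in the libraries of run 1. The sums of the 2 runs do not rest on the same markers. Ighm and Ighd were at 0 in every library of run 1, which listed 7346 to 8657 genes against 28692 in run 2. Haemoglobin transcripts reached 30260 CPM in blood of run 2 and 252 to 910 CPM in the other healthy libraries. Pairs of healthy libraries shared 0 to 27 cell barcodes, at most 0.919% of the smaller library.

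In healthy tissues the large membrane subunit and the organizer were lower in blood than in bone marrow, whereas the small membrane subunit, the adaptor and the GTPase were not called. Cybb was measured at 864 and 688 CPM in bone marrow, 792 and 168 CPM in spleen, and 297 and 59.7 CPM in blood, in runs 1 and 2. Bone marrow lay above blood without overlap and the order was bone marrow, spleen, blood in both runs, but the 2 spleen libraries spanned nearly the whole range. The log2 fold change of blood over bone marrow was -2.98 ± 0.58 (SE, n = 2 libraries each, edgeR quasi-likelihood test with Benjamini-Hochberg adjustment, adjusted p = 0.0145). Within runs the difference was -1.80 in run 1 and -3.84 in run 2 on the same log2 scale. The summed level of 6 monocyte markers moved with it, at 1371 and 996 CPM in bone marrow, 1128 and 312 CPM in spleen, and 623 and 245 CPM in blood. All 6 were detected except F13a1 and Cx3cr1, which were at 0 in both spleen libraries, and their part in the result was not tested.

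Cyba, whose product is the obligate partner of the Cybb protein, was measured at 2670.4 and 2354 CPM in bone marrow, 2695 and 2143 CPM in spleen, and 2355 and 2211 CPM in blood. The 3 tissues overlapped in this gene. Its log2 fold change in blood was -0.42 ± 0.27 (edgeR, adjusted p = 0.298), a difference within the spread of the libraries.

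Of the cytosolic members, Ncf1 was at 504 and 417 CPM in bone marrow, 416 and 189 CPM in spleen, and 342 and 165 CPM in blood. Both blood libraries lay below both bone marrow libraries, and the log2 fold change was -1.28 ± 0.34 (edgeR, adjusted p = 0.0368), with -0.82 and -1.65 within runs 1 and 2. Ncf4 was at 429 and 392 CPM in bone marrow, 375 and 353 CPM in spleen, and 298 and 358 CPM in blood. Blood was again below bone marrow in both runs, but the log2 fold change of -0.60 ± 0.26 did not pass (edgeR, adjusted p = 0.140). Rac2 was at 2054 and 1759 CPM in bone marrow, 2097 and 1925 CPM in spleen, and 2151 and 1855 CPM in blood. The tissues overlapped, and the log2 fold change of -0.22 ± 0.24 (edgeR, adjusted p = 0.554) turned to 0.07 when libraries were scaled by total UMIs alone.

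The proton channel transcript was the scarcest in absolute UMIs, with 23 to 337 per library. Hvcn1 was at 58.6 and 37.0 CPM in bone marrow, 38.0 and 28.1 CPM in spleen, and 20.6 and 6.61 CPM in blood. Bone marrow exceeded blood without overlap, with a log2 fold change of -2.27 ± 0.31 (edgeR, adjusted p = 0.00503). In blood of run 2, 0.545% of neutrophils had a UMI of Hvcn1, next to 0.539% of 742 erythroid-like cells of the same library (median 826 and 2756 UMIs). At least 50% of the UMIs of the erythroid-like cells were haemoglobin, so that these shares stand at unlike depth. With haemoglobin left out of the total, Hvcn1 was at 27.2 CPM (7.41 to 69.6) in them, from 4 UMIs. The 6.61 CPM of the neutrophils, from 23 UMIs, was therefore not told apart from background. The fold and its SE for Hvcn1 depend on a library not told apart from background and are no measure of how far the transcript fell.

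In all, 3 of the 6 members, Hvcn1 with that limit among them, were called lower in blood than in bone marrow and 0 higher, where 9.94% of the 7809 genes tested were called lower, 11.7% higher and 21.7% were called in either direction. The median log2 fold change was -0.94 over the members and -0.02 over all genes tested. The libraries of a run deviated together, and without the run as a block 0 members were called, with adjusted p of 0.213 for Cybb, 0.263 for Ncf1 and 0.109 for Hvcn1 (edgeR) and 164 genes called in all. Scaled by total UMIs alone, Ncf1 was not called (edgeR, adjusted p = 0.0649), and the calls split into 982 genes higher and 479 lower in place of 917 and 776, with the median gene at 0.26. Leaving out bone marrow run 2 also ended the call of Ncf1 (edgeR, adjusted p = 0.390), and its log2 fold change was then -0.66. Leaving out either blood library likewise left 0 members called, at adjusted p of 0.146 and 0.168 for Cybb (edgeR, without runs 1 and 2). Over every alternative the adjusted p by edgeR or DESeq2 ranged from 2.0e-15 to 0.281 for Cybb, from 1.7e-04 to 0.526 for Ncf1 and from 1.9e-08 to 0.249 for Hvcn1, and the 3 log2 fold changes stayed negative.

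**Figure D1:**
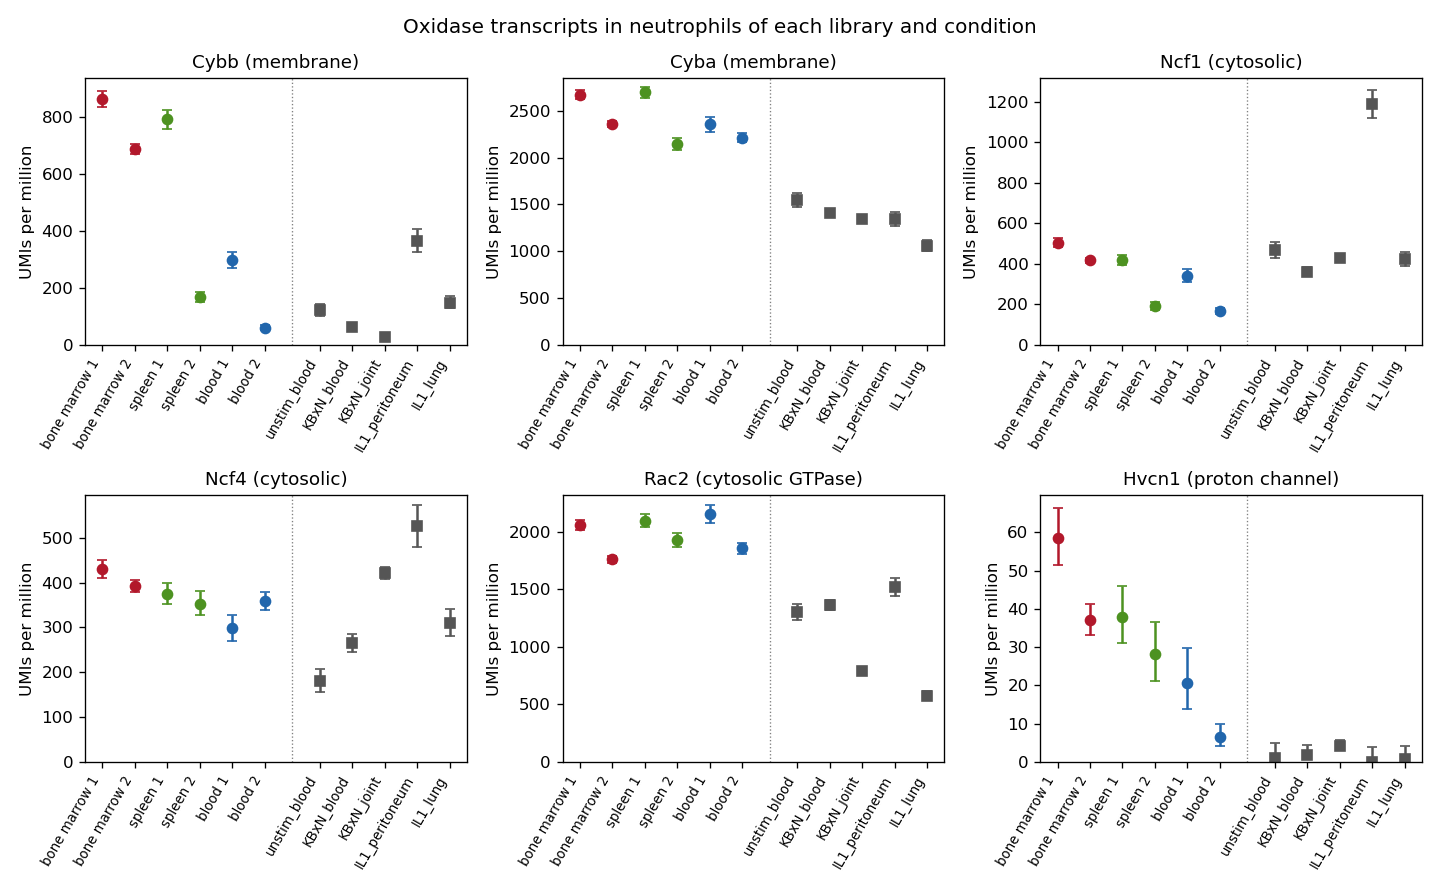
CPM of each oxidase transcript (y axis, from 0) in the 6 healthy libraries (circles, tissue and run) and the 5 conditions of the inflammation library (squares), with exact 95% Poisson intervals that cover counting error only. Cybb falls from 864 CPM in bone marrow of run 1 to 59.7 CPM in blood of run 2, while Cyba stays between 2143 and 2695 CPM in the healthy libraries.

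Between spleen and bone marrow 0 of the 6 members were called, where 2.75% of genes were (215 of 7809, and 1310 at an unadjusted p under 0.05). DESeq2 also called 0 members, with 266 genes. The log2 fold change was -1.35 ± 0.56 for Cybb (edgeR, adjusted p = 0.287) and -0.88 ± 0.34 for Ncf1 (edgeR, adjusted p = 0.257). These differences rested on run 2, since Cybb differed by -0.03 in run 1 and -2.47 in run 2 on the log2 scale, and Ncf1 by -0.18 and -1.57. Without the bone marrow library of run 1, 2 members and 725 of 8098 genes were called, and without the spleen library of run 1, 2 members and 1250 of 8757 genes. Between spleen and blood 0 members and 0.0512% of genes were called (4 genes, and 801 at an unadjusted p under 0.05; DESeq2 called 28 genes and 0 members), and Cybb was higher in spleen in both runs, by 2.67-fold and 2.81-fold in CPM. Leaving out either bone marrow library raised the spleen and blood calls to 2 members and to 232 and 245 genes.

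The proportion of cells rich in early granule transcripts differed across these libraries. Camp, Ngp, Ltf, Lcn2 and Chil3, which encode granule and secreted proteins made early in neutrophil development, were summed per cell as a share of its UMIs. More than 5% of UMIs came from them in 53.1% (run 1) and 34.4% (run 2) of cells from bone marrow, in 40.7% and 2.94% of those from spleen, and in 9.57% and 0.654% of those from blood. The members were therefore also compared among cells in the same range of early granule share.

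Cybb had the highest median fold of the 6 members between cells rich and poor in these transcripts. In cells over 5%, Cybb was at 1056 and 976 CPM in bone marrow, 1037 and 1045 CPM in spleen, and 977 and 714.5 CPM in blood. In cells under 1% it was at 217 and 182 CPM, 88.8 and 37.6 CPM, and 71.2 and 34.9 CPM in the same order. It was thus higher in the cells over 5% of 6 of 6 libraries, by 4.87-fold to 27.8-fold (median 12.7). The libraries lay close together in the early cells apart from blood of run 2, which held only 24 such cells, and spread apart in the cells under 1%.

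Hvcn1 followed, higher over 5% in 6 of 6 libraries (median 6.44-fold), from 48.6 to 86.1 CPM over 5% and from 2.06 to 25.1 CPM under 1%. These levels rest on 5 to 301 UMIs over 5% and 2 to 42 UMIs under 1% per library, with the highest fold, 41.7 in blood of run 1, resting on 26 and 2 UMIs. Ncf1 was higher in 6 of 6 libraries by a median of 1.84-fold, and by 1.22-fold in bone marrow of run 1 against 3.53-fold in blood of run 2. Ncf4 was higher in 6 of 6 libraries by a median of 1.37-fold, and Cyba in 5 of 6 by 0.922-fold to 1.36-fold. Rac2 went the opposite way, lower over 5% in all 6 libraries with a median fold of 0.779. These folds are a description, since the cells of a library share their mice and preparation.

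**Figure D2:**
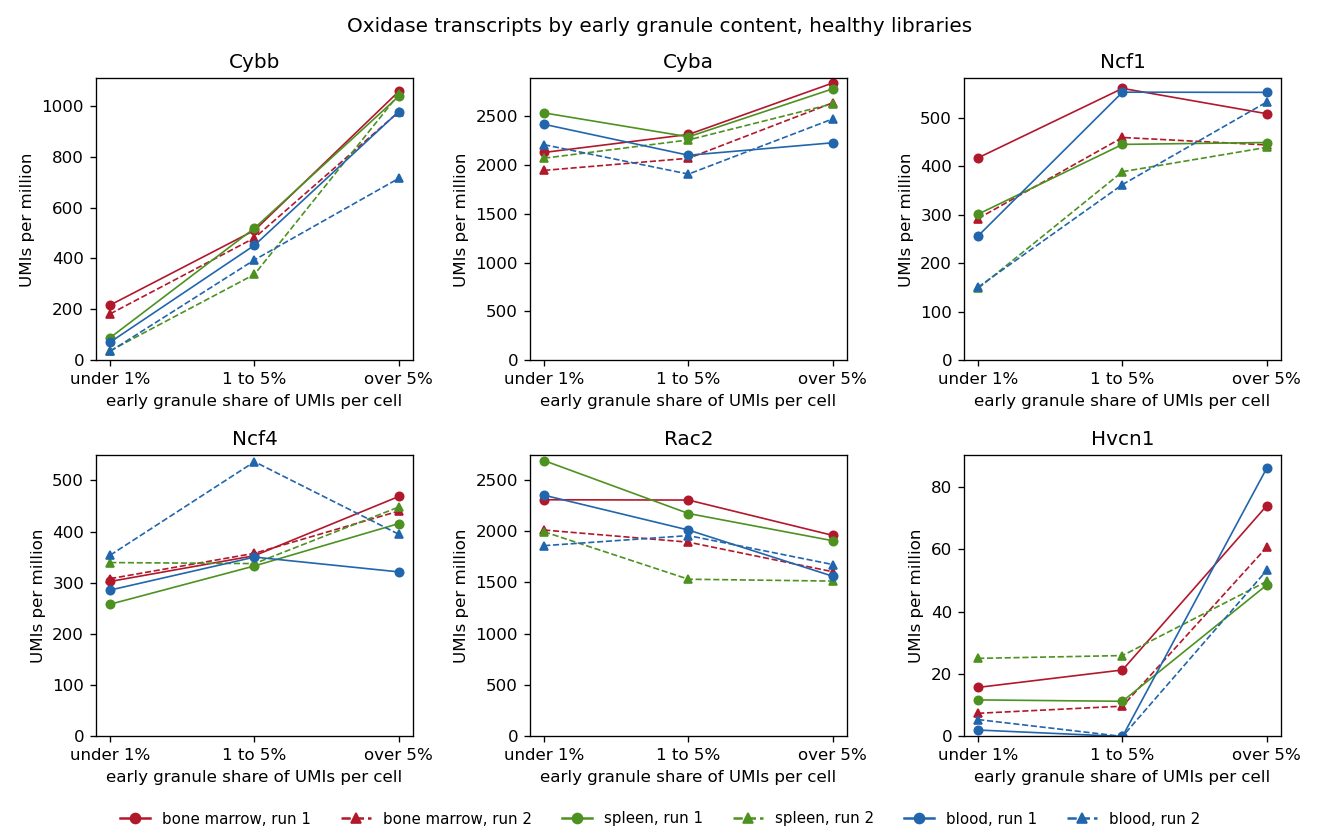
CPM of each member (y axis, from 0) in cells with under 1%, 1 to 5% and over 5% of UMIs from Camp, Ngp, Ltf, Lcn2 and Chil3 (x axis), 1 line per healthy library, colours for tissues and dashes for run 2. Cybb rises in all 6 libraries and meets near 1000 CPM except for blood of run 2 at 714.5 CPM, Rac2 declines from the first to the last range, and Cyba changes little.

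Among cells under 1%, Cybb and Ncf1 were still lower outside the bone marrow, and now in spleen as well as in blood. This range need not put the tissues at a like share, and the part of the share left within it was not tested. The log2 fold change of Cybb was -2.36 ± 0.27 in blood (edgeR, adjusted p = 0.000534) and -2.16 ± 0.29 in spleen (edgeR, adjusted p = 0.00139). That of Ncf1, at 418 and 293 CPM in bone marrow, 302 and 148.5 CPM in spleen and 257 and 151 CPM in blood, was -1.15 ± 0.22 (edgeR, adjusted p = 0.00835) and -1.05 ± 0.23 (edgeR, adjusted p = 0.0159). The bone marrow libraries lay above those of both other tissues for Cybb, while for Ncf1 the spleen of run 1 reached above the bone marrow of run 2.

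The range under 1% was not free of early precursors in bone marrow. Transcripts of the primary granules (Mpo, Elane, Prtn3 and Ctsg), made at the promyelocyte stage, were found in 8.39% and 2.07% of its bone marrow cells, in 0% and 0.727% of its spleen cells, and in 0% and 1.24% of its blood cells. Mpo there had 404 and 130 UMIs in bone marrow, 0 in both spleen libraries, and 0 and 1 in blood. Without those cells Cybb was at 230 and 181 CPM in bone marrow, 88.8 and 37.8 CPM in spleen, and 71.2 and 34.4 CPM in blood. The log2 fold changes of Cybb were then -2.50 ± 0.21 in blood and -2.29 ± 0.22 in spleen (edgeR, adjusted p of 3.5e-07 and 1.9e-06), and those of Ncf1 -1.30 ± 0.18 and -1.21 ± 0.19 (edgeR, adjusted p of 5.8e-05 and 1.9e-04).

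In the whole range under 1%, 2 of 6 members were called lower in blood and 2 of 6 in spleen, where 5.15% and 4.17% of 6042 genes were called lower, 5.01% and 4.39% higher, and 10.2% and 8.56% in either direction. Cyba, Ncf4 and Rac2 had log2 fold changes between -0.36 and -0.13 in both tissues, none called, with SEs of 0.19 to 0.21. Hvcn1 was not called either, at -1.54 ± 0.64 in blood (edgeR, adjusted p = 0.164) and 0.60 ± 0.57 in spleen (edgeR, adjusted p = 0.642). Without the run as a block 0 members were called in either tissue, at adjusted p of 0.123 and 0.153 for Cybb in blood and spleen (edgeR). Ncf1 lost its call in blood without blood run 1 (adjusted p = 0.113) and in spleen without bone marrow run 2 or spleen run 2 (edgeR, adjusted p of 0.0601 and 0.119). Between spleen and blood 0 members were called in this range by edgeR, with 8 genes in all (0.132%), and DESeq2 called 5 genes.

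**Figure D3:**
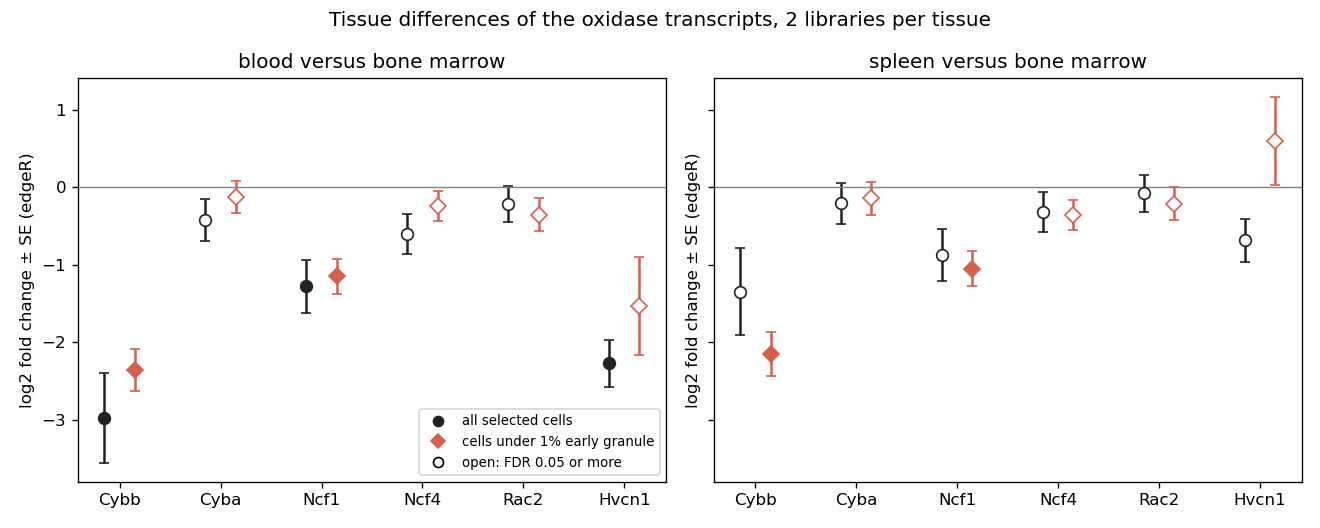
Log2 fold changes with SE (y axis, edgeR, TMM scaling, run as a block) of the 6 members in blood and in spleen against bone marrow, for all selected cells (circles) and for cells under 1% early granule share (diamonds), filled where the adjusted p passed 0.05. Cybb and Ncf1 are filled in blood in both sets of cells and in spleen only among the cells under 1%, and Cyba and Rac2 lie between -0.42 and -0.080.

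Other cells of the same tissues bear on Hvcn1 in particular. B cell-like and T cell-like cells of the spleen of run 2 had S100a8 plus S100a9 under 1% of UMIs. They held at least 3 UMIs from at least 2 markers of their own list, and fewer than 2 UMIs of the other. The B cell-like cells (1354) held Hvcn1 at 386 CPM and Cybb at 161 CPM, and the T cell-like cells (466) held 59.4 and 8.80 CPM. With cells carrying lymphoid or haemoglobin transcripts left out, Hvcn1 fell from 28.1 to 14.1 CPM in spleen of run 2 and from 6.61 to 3.13 CPM in blood of run 2, and in bone marrow it was at 55.5 and 35.5 CPM. Its log2 fold change in blood, with the same limit, was then -2.73 ± 0.45 (edgeR, adjusted p = 0.00697). Cybb at 154 and 58.8 CPM in spleen and blood of run 2 and its log2 fold change of -3.07 ± 0.56 in blood (edgeR, adjusted p = 0.00949) changed little.

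The share of cells with a UMI followed the level. Cells with a Cybb UMI made up 73.0% and 57.9% of bone marrow libraries, 46.3% and 6.22% of the spleen ones, and 14.7% and 3.49% of the blood ones. After every cell was thinned to 500 UMIs, which left out 26 cells of blood run 1 and no others, the expected shares were 29.9% and 22.5%, 20.2% and 3.03%, and 7.41% and 1.62%. In T cell-like cells of the spleen and erythroid-like cells of the blood in run 2 the thinned shares were 0.381% and 0.0403%, below the neutrophils of the same libraries (unthinned 1.72% and 0.270%, median 1896 and 2756 UMIs). B cell-like cells of the same spleen library, however, had a thinned Cybb share of 7.15% (unthinned 21.8%, median 1416 UMIs), above the 3.03% of its neutrophils. At least 50% of the UMIs of the erythroid-like cells were haemoglobin, so that thinning did not bring them to a like depth. Thinned shares for Cyba were 65.5% to 72.0% in all 6 libraries.

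The membrane partners were set against each other within each library, where scaling cancels. For each Cybb UMI there were 3.09 and 3.42 Cyba UMIs in bone marrow, against 3.40 and 12.8 in the spleen libraries and 7.93 and 37.0 in the blood libraries. The order bone marrow, spleen, blood held in both runs, and the bone marrow ratios differed far less between runs than the others. On the log2 scale blood exceeded bone marrow by 2.40, with a pooled SD within these tissues of 1.11, and the difference was 1.36 within run 1 and 3.44 within run 2. An exact permutation test of the variance between tissues over 90 arrangements gave p = 0.333 (the smallest this test allows is 0.0667). With labels exchanged within runs only, as the shared mice ask, the exact permutation p was 0.167 over 36 arrangements, the smallest that this form allows. Neither test can reach 0.05. Without blood run 1 the difference was 3.51 and without blood run 2 it was 1.29. As the counting of each gene depends on its sequence, the ratio compares libraries and is no measure of subunit stoichiometry.

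**Figure D4:**
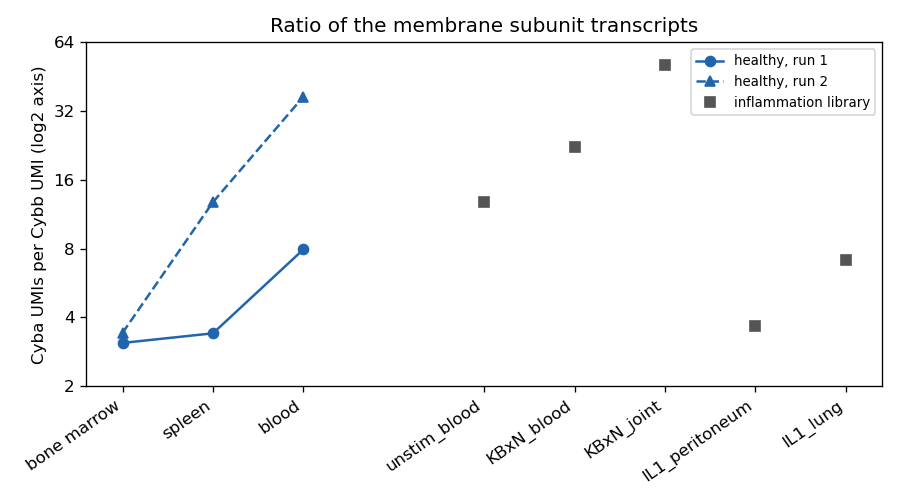
Cyba UMIs per Cybb UMI (log2 y axis) in the 3 healthy tissues, with a line for each run, and in the 5 conditions of the inflammation library (squares). The ratio climbs from bone marrow to blood in both runs, to 7.93 and 37.0, and among the conditions it is 50.9 in KBxN_joint and 3.67 in IL1_peritoneum.

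The remaining parts of the oxidase pathway were counted as lists. Of 13 partners and activators, 1 was called higher and 2 lower in blood than in bone marrow, with a median log2 fold change of 0.19, where 11.7% of all genes were higher, 9.94% lower and the median was -0.02. The count of 3 in 13 is near that background. Prex1, an exchange factor that loads Rac with GTP, was at 37.2 and 40.8 CPM in bone marrow and 154 and 106 CPM in blood (log2 fold change 1.44 ± 0.30, edgeR, adjusted p = 0.0172). Arhgdib fell from 3350.2 and 2707 CPM to 1273 and 1034 CPM (edgeR, adjusted p = 0.0222), and Pak1, a Rac-activated kinase, from 21.0 and 18.3 CPM to 8.82 and 6.61 CPM (edgeR, adjusted p = 0.0217). All 3 calls were lost without the run as a block, at adjusted p of 0.0912, 0.134 and 0.116 (edgeR, in the order named). They were also lost without blood run 1 (0.202, 0.282 and 0.212) and without blood run 2 (0.0733, 0.131 and 0.147, adjusted p by edgeR). Pak1 was not called without bone marrow run 2 (edgeR, adjusted p = 0.101) nor by DESeq2 (adjusted p = 0.0856).

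The other NADPH oxidases and their organizers (Nox1, Nox3, Nox4, Duox1, Duox2, Noxo1 and Noxa1) were at 0 to 2 UMIs in every library and condition, and none could be tested.

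Of 11 enzymes that consume or make peroxide, 3 were called lower and 0 higher in blood, where 9.94% and 11.7% of all genes were. Mpo, the myeloperoxidase that uses the peroxide formed from superoxide, had 505 and 197 UMIs in bone marrow, 0 in both spleen libraries and 0 and 1 in blood. Prdx1 and Prdx6, peroxiredoxins that reduce peroxides, had log2 fold changes of -1.49 ± 0.33 and -1.65 ± 0.37 (edgeR, adjusted p of 0.0220 and 0.0228). In cells under 1% early granule share 4 of 10 tested passed in blood, Mpo, Prdx1 (-1.69, edgeR, adjusted p = 0.0224), Prdx5 (-0.80, edgeR, adjusted p = 0.0391) and Prdx6 (-1.05, edgeR, adjusted p = 0.00986), all lower, where 5.15% of genes were lower. Without the run as a block no peroxide enzyme named here was called, at adjusted p of 0.0669 for Mpo, 0.126 for Prdx1 and 0.133 for Prdx6 (edgeR). The 3 calls over all cells were also lost without either blood library, at adjusted p of 0.0534, 0.233 and 0.268 without run 1 and 0.0576, 0.177 and 0.128 without run 2 (edgeR). Prdx1 was not called either when libraries were scaled by total UMIs alone (edgeR, adjusted p = 0.0729).

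Of the 5 members that could be compared at inflamed sites, Cybb spanned the widest range of folds, with values on both sides of 1. With 1 pool per condition there is no test between conditions, and folds are given against unstim_blood of the same library with exact 95% intervals for counting error. Scaling matters here, because the median of the 3889 genes at 20 CPM or more on average lay at a log2 fold of -0.33 in KBxN_blood, -0.36 in KBxN_joint, -0.86 in IL1_peritoneum and -0.83 in IL1_lung. The summed B cell markers moved with condition, at 209 CPM in unstim_blood, 124 CPM in KBxN_blood, 51.4 CPM in KBxN_joint, 28.6 CPM in IL1_peritoneum and 21.9 CPM in IL1_lung, although Cd79a, Cd79b and Ms4a1 were at 0 in unstim_blood, where 2 of the 7 markers (Ighm and Ebf1) were detected. Cells with lymphoid or haemoglobin markers were 62 of 509 in unstim_blood and 5 of 292 in IL1_peritoneum. Without such cells the folds of Cybb over unstim_blood were 0.199 in KBxN_joint and 2.88 in IL1_peritoneum, and the number of members past 1.5-fold was the same in each condition. Folds with TMM factors, which bring those medians to between -0.08 and 0.01, are given beside the members' folds per total UMIs.

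Cybb was at 121 CPM in unstim_blood, 63.5 CPM in KBxN_blood, 26.4 CPM in KBxN_joint, 365 CPM in IL1_peritoneum and 148 CPM in IL1_lung. The joint was lowest and the peritoneum highest, with intervals that did not overlap those of the other conditions. The fold over unstim_blood was 0.219 (0.177 to 0.271) in KBxN_joint and 3.02 (2.47 to 3.71) in IL1_peritoneum, or 0.278 and 5.19 with TMM factors. In KBxN_blood it was 0.525 (0.417 to 0.663), or 0.663 with TMM factors. In IL1_lung it was 1.23 (0.981 to 1.54), an interval that includes 1, but 2.06 with TMM factors. Between the joint and the blood of the arthritic mice, Cybb was at 0.416-fold (0.343 to 0.507).

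Cybb also differed among cells under 1% early granule share, but this range need not put the conditions at a like share. Over all selected cells the median share was 0% in unstim_blood, 0.0263% in KBxN_joint and 0.681% in IL1_peritoneum. The part of the share left within the range was not tested. Under 1% were 99.8% of KBxN_joint cells and 99.4% of unstim_blood cells, but 61.3% of IL1_peritoneum cells. Among cells under 1%, Cybb was at 114 CPM in unstim_blood, 26.0 CPM in KBxN_joint and 278 CPM in IL1_peritoneum, a fold of 2.44 for the latter per total UMIs.

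Cyba, in contrast, was at 1548 CPM in unstim_blood, 1408 CPM in KBxN_blood, 1344 CPM in KBxN_joint, 1339 CPM in IL1_peritoneum and 1058 CPM in IL1_lung. Its folds over unstim_blood of 0.683 to 0.910 per total UMIs turned to 1.10 to 1.49 with TMM factors, so that no direction can be given. The Cyba to Cybb ratio, free of scaling, was 12.8 in unstim_blood, 22.2 in KBxN_blood, 50.9 in KBxN_joint, 3.67 in IL1_peritoneum and 7.13 in IL1_lung.

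Among the cytosolic members, Ncf4 was at 179.6 CPM in unstim_blood, 264 CPM in KBxN_blood, 421 CPM in KBxN_joint, 525 CPM in IL1_peritoneum and 310.35 CPM in IL1_lung. The folds were 1.47, 2.34, 2.92 and 1.73 in this order of the inflamed conditions, and 1.86, 2.98, 5.03 and 2.91 with TMM factors. No interval of these folds per total UMIs reached 1, the lowest bound being 1.26 in KBxN_blood. All 4 folds rest on the same 202 UMIs of unstim_blood, and a low value there would raise all of them. The blood of healthy mice in the separate libraries was at 298 and 358 CPM, above this reference and above KBxN_blood. Those libraries were separate captures, with another kit chemistry by the methods, and the gap was not particular to Ncf4. Cyba stood there at 2355 and 2211 CPM against 1548 CPM in unstim_blood, and Rac2 at 2151 and 1855 CPM against 1301 CPM. Ncf1 went the other way (342 and 165 CPM against 468 CPM), and Cybb lay on both sides (297 and 59.7 CPM against 121 CPM).

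Ncf1 stood out in the peritoneum. It was at 468 CPM in unstim_blood, 361 CPM in KBxN_blood, 430.25 CPM in KBxN_joint, 1188 CPM in IL1_peritoneum and 423 CPM in IL1_lung. The fold in IL1_peritoneum was 2.54 (2.29 to 2.82), or 4.37 with TMM factors, and in the other conditions it was 0.771 to 0.920, or 0.973 to 1.52 with TMM factors. Cells of the peritoneum under 1% early granule share held 1129 CPM.

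Rac2 was at 1301 CPM in unstim_blood, 1364 CPM in KBxN_blood, 785 CPM in KBxN_joint, 1517 CPM in IL1_peritoneum and 573 CPM in IL1_lung. The joint and the lung were lower, with folds of 0.604 (0.571 to 0.639) and 0.441 (0.403 to 0.481), or 0.767 and 0.741 with TMM factors. The peritoneum was at 1.17 (1.08 to 1.25), or 2.01 with TMM factors. Against KBxN_blood, Rac2 in KBxN_joint was at 0.576-fold (0.554 to 0.599).

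Hvcn1 was close to the limit of detection in this library, with 1 UMI in unstim_blood, 5 in KBxN_blood, 43 in KBxN_joint, 0 in IL1_peritoneum and 1 in IL1_lung. The joint, the deepest condition, was at 4.18 CPM (3.02 to 5.63), and the 0 UMIs of the peritoneum allow up to 3.91 CPM by the same kind of interval. The joint's ratio to KBxN_blood was 2.25 with an interval of 0.893 to 7.28, so that no difference was detectable at this depth.

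Counted per condition over the 5 members at 20 CPM or more on average and per total UMIs, 3 were at least 1.5-fold higher and 0 lower in IL1_peritoneum, where 16.6% and 58.4% of genes were. With TMM factors 4 were higher there, Rac2 being the one added, and 0 lower, where 30.4% and 31.9% of genes were. In IL1_lung 1 was higher and 1 lower per total UMIs (17% and 57.9% of genes), but 3 were higher (Cybb, Ncf1 and Ncf4) and 0 lower with TMM factors (29.9% and 32.4%). In KBxN_joint 1 was higher and 2 lower (15.7% and 38.1%), or 1 and 1 with TMM factors (24.0% and 20.9%). In KBxN_blood 0 were higher and 1 lower (2.93% and 24.4%), or 1 and 1 with TMM factors (7.38% and 6.53%). Against KBxN_blood, 1 was higher and 2 were lower in KBxN_joint under both scalings (23.1% and 18.3% of genes per total UMIs). The 4 inflamed conditions share the same unstim_blood cells as their reference.

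**Figure D5:**
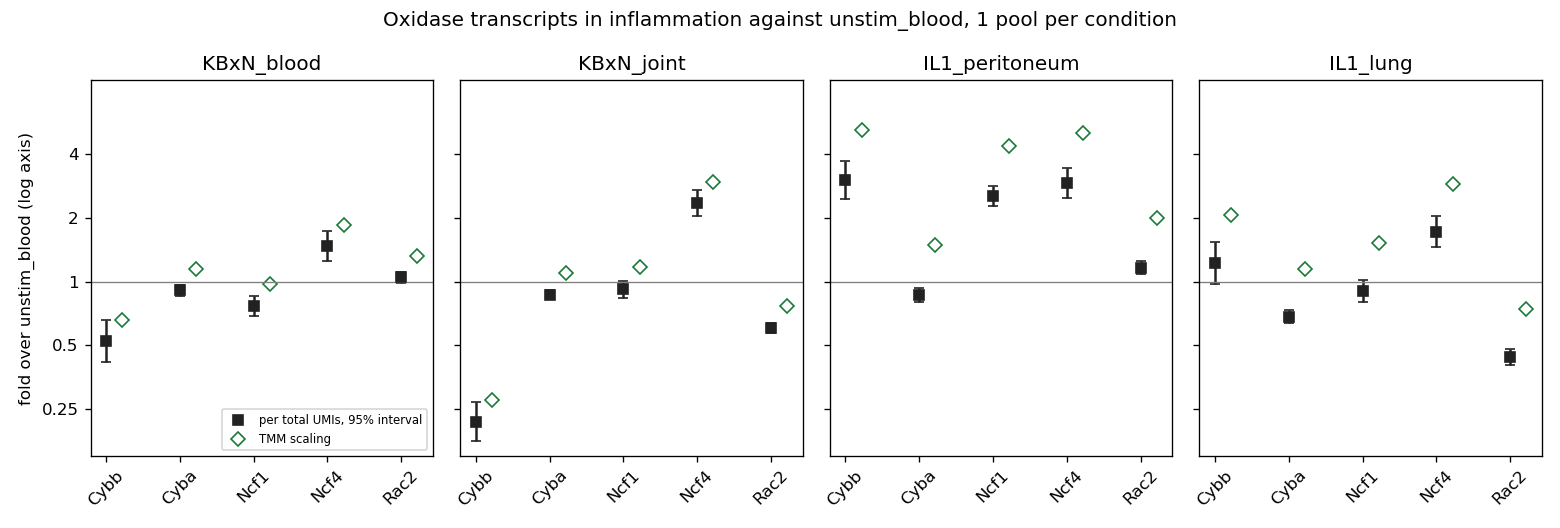
Fold of each member over unstim_blood (log y axis) in the 4 inflamed conditions, per total UMIs with exact 95% intervals for counting error (black squares) and with TMM factors (open green diamonds), 1 pool of mice per condition. Cybb is at 0.219 in KBxN_joint and 3.02 in IL1_peritoneum, Ncf4 lies above 1 in the 4 conditions, which share 1 reference, and Cyba changes sides between the scalings.

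The counts of the partner list depended on the scaling. Of 12 partners at 20 CPM or more, 0 were at least 1.5-fold higher and 7 lower in IL1_peritoneum per total UMIs, a share close to the 58.4% of all genes, and 3 were higher and 1 lower, Prex1, with TMM factors (30.4% and 31.9% of genes). In the joint 1 was higher, Arhgdia, and 5 were lower (15.7% and 38.1% of genes), or 1 and 2 with TMM factors (24.0% and 20.9%).

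Of 7 peroxide enzymes at that level, Sod2, Prdx5, Prdx6 and Txnrd1 were at least 1.5-fold higher in KBxN_joint, in IL1_peritoneum and in IL1_lung under both scalings. Per total UMIs 15.7%, 16.6% and 17% of all genes were higher there. In the joint and the lung 3 of the 7 were lower (Gpx1, Gpx4 and Txn1), and in the peritoneum 2 (Gpx1 and Gpx4), where 38.1%, 57.9% and 58.4% of genes were. With TMM factors Gpx1 was lower in the joint and the peritoneum, Gpx1 and Gpx4 in the lung, and Txn1 was higher in the peritoneum. At that scaling 24.0%, 30.4% and 29.9% of genes were higher and 20.9%, 31.9% and 32.4% lower in the joint, the peritoneum and the lung. Sod2, the mitochondrial enzyme that converts superoxide to peroxide, was 64.0-fold (44.4 to 95.9) higher in IL1_peritoneum and 43.2-fold (30.0 to 64.7) in IL1_lung, but 2.28-fold (1.57 to 3.43) in KBxN_joint, from 29 UMIs in unstim_blood. With TMM factors these folds were 110.1, 72.7 and 2.89. Prdx6 had its highest fold in the joint, at 5.08 (4.19 to 6.23), or 6.45 with TMM factors. Gpx1, a glutathione peroxidase, was at 0.392, 0.247 and 0.149 in KBxN_joint, IL1_peritoneum and IL1_lung, or 0.498, 0.425 and 0.251 with TMM factors. In KBxN_blood, Prdx5 was also higher, at 1.64-fold (1.53 to 1.75), or 2.07 with TMM factors. Txn1 passed 1.5-fold there with TMM factors only. Against KBxN_blood, Sod2, Prdx6 and Txnrd1 were at least 1.5-fold higher in KBxN_joint under both scalings, but Prdx5 was at 1.09-fold (1.05 to 1.13). The Prdx5 folds over unstim_blood share that reference of 949 CPM. Healthy blood of runs 1 and 2, captured separately, was at 2633 and 1884 CPM.

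Finally, the genes whose pattern was most like each member were found by Pearson correlation of log2(CPM + 1), centred within run 1, run 2 and the inflammation library, among 1159 genes at 100 CPM or more on average. The 11 points are 6 libraries and 5 conditions, share mice and depth within runs, and support no test. Cybb was nearest to Camp (r = 0.94), Triobp (0.94) and Serpinb1a (0.89). Camp, an antimicrobial peptide of specific granules, belongs to the early granule list used above. Ncf1 was nearest to Eif4g2 (0.89), Lims1 (0.84) and Cybb (0.83), Ncf4 to Rilpl2 (0.90), Mrgpra2b (0.85) and Mrgpra2a (0.84), Rac2 to Nfe2 (0.90), Prr13 (0.85) and Pi16 (0.80), and Cyba to Emp3, Oaz1 and Flna (0.89 each). The correlation of Cybb with its membrane partner Cyba was 0.10. Hvcn1 was below the minimum level.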

How the data were processed

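The deposited files hold UMI counts per gene and cell, which the authors made with Cell Ranger on the mm10 genome, with 1 table per healthy library and 1 for the inflammation library, whose cells carry the authors' condition and cell type columns. For the inflammation library the files held hashtag singlets only, and no doublet caller was run here. The labels and the methods differ on the kit chemistry and the sequencer.

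Counts were summed over the selected cells of each library. Tissues were compared with edgeR 4.0.16 (R 4.3.3, TMM factors, filterByExpr, quasi-likelihood test) on all 6 healthy libraries with the run as a block, at a Benjamini-Hochberg adjusted p of 0.05. The block follows from the methods, by which the 3 tissues were taken from 1 pool of mice per run. Deviations of same-run libraries from their tissue means correlated at 0.55 to 0.63 over 7809 genes in all 3 tissue pairs. With 2 pools per tissue, depth and number limit precision, and on simulated counts for blood against bone marrow (7809 genes) the fit recovered 27% of 2-fold and 96% of 4-fold changes.

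Conditions of the inflammation library, 1 pool each, were compared without a test, with exact Poisson intervals on levels and exact conditional binomial intervals on folds (95%, SciPy 1.17.1). Cells were split at 1% and 5% of UMIs from the early granule genes. Thinned shares used 500 UMIs per cell. Cells with at least 2 lymphoid UMIs or over 5% haemoglobin were left out in 1 alternative. The members, the lists (partners, other oxidases, peroxide enzymes, markers) and the tests were chosen with earlier results of these data known. List genes were named where called or where their values bore on a member, and the 3 nearest genes by correlation were named for each member. 1 gene of the partner list is not reported here and was left out of its counts. A minimum of 10% S100a8 plus S100a9, cells with primary granule UMIs left out, inflamed cells with other lineage markers left out, and ratio labels exchanged within runs were added after the data were seen. Other alternatives were DESeq2 1.42.0, other scalings, filters and thresholds, no block, and each library left out in turn, where a tissue left with 1 library was assumed to vary like the others.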

Additional observations from a re-analysis of the deposited data

Results flagged for a closer look

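Per total UMIs, opposite directions between inflamed conditions were found for 3 members, each with 1 pool of mice per condition, so that the differences between conditions were not tested. Cybb was at 3.02 times its unstim_blood level in IL1_peritoneum and at 0.219 times that level in KBxN_joint. Ncf1 was at 2.54 in IL1_peritoneum and 0.771 in KBxN_blood. The latter was 0.973 with TMM factors, so that its opposite direction depends on the scaling. Rac2 was at 1.17 in IL1_peritoneum and 0.441 in IL1_lung.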

How the results depend on the processing

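Without the replicate block, blood against bone marrow called 164 genes and 0 members, spleen against bone marrow 0 genes and spleen against blood 0 genes; among cells under 1% early granule share the same fit called 0 genes and 0 members in each of the 3 comparisons. With every barcode kept, the 3 comparisons called 0, 0 and 0 genes and 0 members. The cells under 1% gave 614 genes in blood and 517 genes and 2 members in spleen against bone marrow, and 8 genes between spleen and blood, where cells of all ranges gave 1693, 215 with 0 members, and 4. DESeq2 called 28 genes between spleen and blood, and under 1% it called 298, 249 and 5. No filter on low counts gave 18 genes between spleen and blood, the 10% threshold 19, and the quality filter 115 between spleen and bone marrow. Without TMM factors the cells under 1% gave 781 genes in spleen against bone marrow and 5 between spleen and blood. With primary granule cells left out, the cells under 1% gave 825 genes in spleen against bone marrow and 38 between spleen and blood. In KBxN_blood 2 members were at 1.5-fold with TMM factors, 1 higher and 1 lower, where 7.38% of genes were higher and 6.53% lower. With S100a8 and S100a9 taken out of the total 2 members were at 1.5-fold. The share of all genes was not counted at that setting, so that this count is not read further.

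Leaving out 1 library moved blood against bone marrow from 0 to 2626 genes and from 0 to 4 members, spleen against bone marrow from 0 to 1250 and from 0 to 2, and spleen against blood from 0 to 245 and from 0 to 2. Under 1% the ranges were 350 to 979 genes and 1 to 3 members, then 345 to 684 and 1 to 2, then 8 to 86 and 0 to 1. The log2 ratio of Cyba to Cybb, blood minus bone marrow, ranged from 1.29 to 3.51.

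Log2 fold changes reversed without TMM factors for Rac2 in blood (0.070) and spleen (0.080), and under 1% for Cyba (0.18) and Ncf4 (0.060) in blood and Cyba (0.17) and Rac2 (0.10) in spleen. With every barcode kept they reversed for Hvcn1 (0.30) in spleen, and between spleen and blood for Cyba (-0.26), Ncf4 (-0.18) and Rac2 (-0.16). Between all cells and those under 1%, Hvcn1 in spleen turned from -0.69 to 0.60, and between spleen and blood Cyba turned from 0.21 to -0.017 and Ncf4 from 0.28 to -0.11. Leaving out 1 library gave ranges that crossed 0 in spleen against bone marrow for Cyba (-0.58 to 0.11) and Rac2 (-0.29 to 0.11), and in spleen against blood for Cyba (-0.17 to 0.56), Ncf1 (-0.17 to 0.86), Ncf4 (-0.089 to 0.62) and Rac2 (-0.10 to 0.35). Under 1% they did so in blood for Cyba (-0.25 to 0.014), in spleen for Cyba (-0.33 to 0.072), Rac2 (-0.40 to 0.0050) and Hvcn1 (-0.70 to 1.32), and between spleen and blood for Cybb (-0.25 to 0.67), Cyba (-0.25 to 0.18), Ncf1 (-0.24 to 0.41) and Rac2 (-0.087 to 0.34). The causes were not tested.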
